A study of Mus musculus with 24 samples.

Results

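The genes of NAD synthesis, NAD use and the sirtuins were followed over circadian time in the inguinal fat pads of mice without Bmal1 in adipocytes. The 10 genes chosen, called members here, were Nampt, Nmnat1, Nmnat3, Nadk, Nnmt, Sirt1, Sirt3, Sirt6, Parp1 and Cd38, and each was taken from a probe set that carried exactly 1 gene symbol. Of these, 9 were measured, among 19938 genes in all, and each of the 9 had a single such probe set. Cd38 was not analysed here. The knockout mice were aP2-Cre+/- Bmal1fx/fx (Ad-Bmal1-/-), and the control mice were Bmal1fx/fx without Cre, so both genotypes carried the floxed alleles and only the knockout carried the recombinase. All animals had a C57BL/6J background, of 6 or more generations of crossing, and ate regular chow. They were kept in constant darkness from 36 h before collection and fasted for 24 h. Fat was taken at CT0, when the subjective day begins, and at CT6, CT12 and CT18, from 3 mice per genotype and time, which gave 8 groups and 24 arrays. The age and sex of the mice were not used here. The aP2 (Fabp4) promoter that drives Cre is also known to be active in some cells other than adipocytes, such as macrophages, and the pads were not sorted into cell types.

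NAD is a redox carrier and also a substrate that sirtuins, poly(ADP-ribose) polymerases and the ectoenzyme CD38 consume, each releasing nicotinamide. NAMPT joins nicotinamide to phosphoribosyl pyrophosphate, the slow step of the salvage pathway on which most mammalian tissues depend, and adipocytes also secrete the protein. The heterodimer of BMAL1 and CLOCK binds E-boxes of the Nampt gene in other mouse tissues, and the NAD made there feeds the deacetylase SIRT1, which in turn acts on the clock. The comparison of genotypes over circadian time addressed which transcripts of this pathway depended on Bmal1 in fat.

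Values are log2 expression levels, and each difference is knockout minus control on that log2 scale, with its standard error (SE) from limma. The median level over all genes lay between 6.46 and 6.56 on all 24 arrays. The fat cell genes Adipoq and Plin1 reached 11.77 to 12.13 and 8.66 to 9.95 over the 24 arrays, so every pad held adipocyte RNA. The second knockout array at CT0 stood apart. Its mean over 8 adipocyte genes was 10.33, against 10.68 to 11.12 on the other 23 arrays, and its mean over the mammary and skin epithelium genes was 7.05, against 6.01 to 6.52. A further 4 arrays, the first replicate of each genotype at CT12 and the third of each at CT18, had been singled out in earlier work on these data because most genes that differed between the genotypes had values nearer the opposite genotype on them. Every fit reported first keeps the labelled genotypes. Values that moved most without these 5 arrays are also given without them. In whole tissue, fewer cells of a type and less RNA per cell cannot be told apart.

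The stretches before the start sites of 4 genes are shown because they hold recognition letters of clock factors. RefSeq windows of assembly GRCm38.p6, running 250 bases before to 50 after each start site, were read for 8 of the 9 genes (12 windows), and the 250 upstream bases are printed 5′ to 3′. Nampt is from chr12:32820085-32820334 on the plus strand, Sirt1 from chr10:63339036-63339285 on the minus strand, Nadk from chr4:155563565-155563814 on the plus strand and Parp1 from chr1:180568641-180568890 on the plus strand. Capitals mark CACGTG, the E-box bound by BMAL1 and CLOCK, or AGGTCA, the core of the ROR and REV-ERB element.
Nampt: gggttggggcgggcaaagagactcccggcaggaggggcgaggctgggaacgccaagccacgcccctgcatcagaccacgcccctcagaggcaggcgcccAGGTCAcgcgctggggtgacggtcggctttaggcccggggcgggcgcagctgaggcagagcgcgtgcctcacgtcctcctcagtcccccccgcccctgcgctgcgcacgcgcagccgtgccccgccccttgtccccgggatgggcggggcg
Sirt1: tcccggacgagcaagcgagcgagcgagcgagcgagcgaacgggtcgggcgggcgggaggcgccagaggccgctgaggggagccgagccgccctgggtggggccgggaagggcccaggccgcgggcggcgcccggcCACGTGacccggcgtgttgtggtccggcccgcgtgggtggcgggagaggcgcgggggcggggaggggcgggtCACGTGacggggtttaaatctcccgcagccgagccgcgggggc
Nadk: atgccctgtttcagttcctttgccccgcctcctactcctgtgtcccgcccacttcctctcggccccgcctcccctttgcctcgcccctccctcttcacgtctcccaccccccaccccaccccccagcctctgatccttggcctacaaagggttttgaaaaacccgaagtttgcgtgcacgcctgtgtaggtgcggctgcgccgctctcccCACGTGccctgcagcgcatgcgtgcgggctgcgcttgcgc
Parp1: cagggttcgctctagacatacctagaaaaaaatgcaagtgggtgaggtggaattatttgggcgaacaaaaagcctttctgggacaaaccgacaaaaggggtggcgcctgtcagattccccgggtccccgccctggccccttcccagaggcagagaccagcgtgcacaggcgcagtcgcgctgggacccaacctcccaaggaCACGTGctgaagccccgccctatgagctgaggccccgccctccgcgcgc
Letters were searched on both strands, and the motifs searched share no overlapping match in these 4 stretches. The E-box CACGTG stood in 3 of the 8 genes, in 1 window of each, so in 3 of the 12 windows. Sirt1 had it at -115 and -43 from the start site, Nadk at -40 in 1 of its 2 windows, and Parp1 at -49. The same letters stood in 7.15% of all 32851 RefSeq windows. Those windows of Sirt1, Nadk and Parp1 held 47, 24 and 20 CG dinucleotides, against a median of 7 over all windows. CACGTG holds a CG, and the share of all windows was not matched for this. Nampt had no CACGTG in its window and 1 AGGTCA, at -151, and Nmnat3 had 1 AGGTCA at 24 bases after its start site, letters found in 16.3% of all windows. The variant CACGTT was found in 0 of the 8 genes and in 4.68% of all windows. A match here is a description of the letters only.

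Nampt had the largest mean difference by genotype of the 9 genes, lower in knockout fat, and it did not pass the test over all arrays. The gene (probe set 10395259) lies at chr12:32820335-32853369 in GRCm38.p6. At CT0 the knockout arrays read 8.85, 8.68 and 9.00, against 9.63, 9.81 and 9.35 on the control arrays. At CT6 they read 8.78, 8.94 and 8.86, against 9.55, 9.26 and 9.38 in control fat. Every knockout array was below every control array at both of these times, which held for 4.47% of all genes at CT0 and 6.27% at CT6.

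At CT12 the knockout arrays read 10.29, 9.56 and 9.20, against 9.33, 9.77 and 9.89 in control fat. At CT18 they read 9.48, 9.10 and 9.86, against 9.92, 9.76 and 9.69 in control fat. The genotypes overlapped at both later times, and the knockout replicates were widely spread, with an SD of 0.55 at CT12 and 0.38 at CT18, against 0.30 and 0.12 in control fat.

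**Figure D1:**
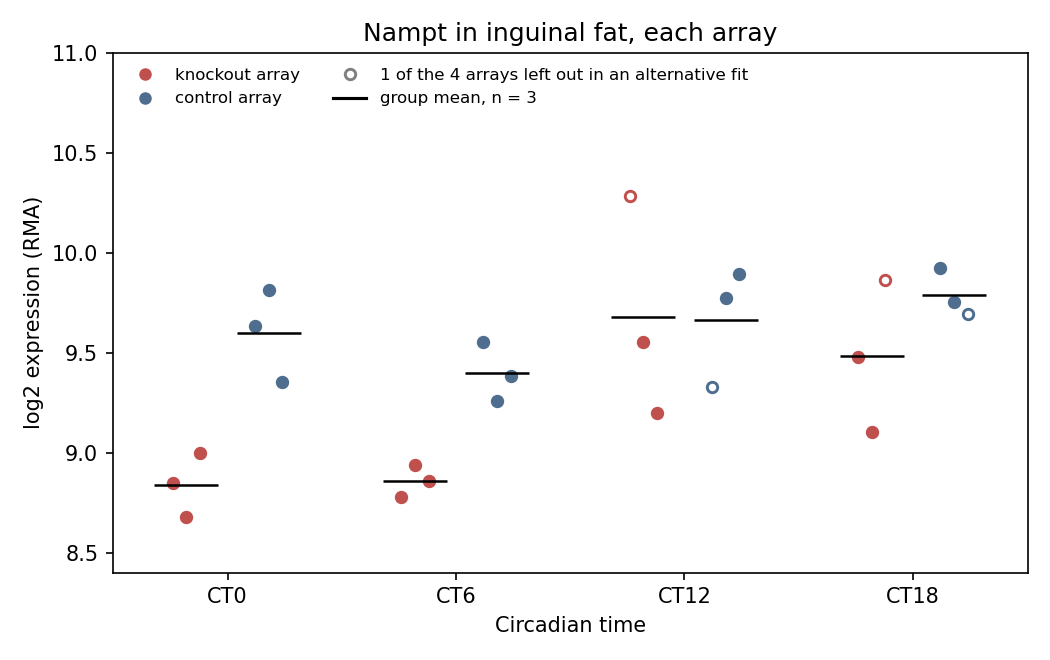
Nampt log2 expression on each of the 24 arrays by circadian time, with group means, for knockout and control fat (3 arrays each per time). The knockout arrays lie between 8.68 and 9.00 at CT0, all under the control arrays, and between 9.20 and 10.29 at CT12, where the genotypes overlap.

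The Nampt difference was -0.76 ± 0.21 at CT0 (95% interval -1.20 to -0.32), a level 0.590 times that of control fat. It was -0.54 ± 0.21 at CT6 (-0.98 to -0.10), 0.01 ± 0.21 at CT12 (-0.42 to 0.45) and -0.31 ± 0.21 at CT18 (-0.75 to 0.13). Over the 4 times the mean difference was -0.40 ± 0.11 (-0.62 to -0.18), a fold of 0.759, and 10 of the 12 knockout arrays were lower than the control mean for that circadian time. None of these passed limma's test after Benjamini-Hochberg adjustment over all genes. The adjusted p was 0.300 for the mean difference, at the 74th smallest p of all genes, 0.592 at CT0, 0.9997 at CT6 and 0.871 at CT18.

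Whether the Nampt mean difference passed turned on the first knockout array at CT12 alone, or on the 4 arrays singled out together. The first knockout array at CT12, at 10.29, was the highest of all 24 for Nampt, while the first control array at CT12, at 9.33, was the lowest of its group. At CT18 the third knockout array (9.86) was the highest of its group and the third control array (9.69) the lowest, so all 4 of the arrays singled out lay on the side of the opposite genotype within their groups. Without the first knockout array at CT12 alone, the mean difference was -0.47 ± 0.09 with an adjusted p of 0.0286, and the CT12 difference was -0.29. Without all 4 of the arrays singled out at CT12 and CT18, the mean difference was -0.58 ± 0.07 with an adjusted p of 0.000677, and it was below 0 at each time, at -0.76, -0.54, -0.46 ± 0.16 and -0.55 ± 0.16 in the order of the cycle. In that fit 0.697% of all genes passed (139 of 19938). Those arrays were picked by genes that differ by genotype, so this p is not independent of the genotype difference. Without the second knockout array at CT0, which was also the lowest of the 24 for Nampt, the mean difference was -0.38 ± 0.11, with an adjusted p of 0.331, and the CT0 difference was -0.68 ± 0.23.

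Over the day, Nampt in knockout fat was lowest at CT0 (8.84 ± 0.16, SD, n = 3) and highest at CT12 (9.68 ± 0.55), a peak minus trough of 0.84. Without the first knockout array at CT12 the CT12 mean was 9.38, below the 9.48 of CT18, and without all 4 arrays it was 9.38, against 9.29 at CT18, so the time of the knockout peak was not settled. In control fat it was lowest at CT6 (9.40 ± 0.15) and highest at CT18 (9.79 ± 0.12), a peak minus trough of 0.39. CT12 minus CT0 was 0.84 ± 0.21 in knockout fat, with an adjusted p of 0.135, and 0.06 ± 0.21 in control fat. Without the first knockout array at CT12, the knockout step was 0.54 ± 0.19 (adjusted p = 0.568), and without all 4 arrays it was 0.54 ± 0.15 (0.319), against 0.23 ± 0.15 in control fat. CT18 minus CT6 was 0.62 ± 0.21 in knockout fat (adjusted p = 0.283) and 0.39 ± 0.21 in control fat (0.691). The F test for any change over time gave an adjusted p of 0.138 in knockout fat, 0.944 in control fat and 0.0934 over both, and the genotype by time interaction gave 0.9997, so a different time course was not shown.

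Ordered by mean, the 8 groups ran from control CT18 through knockout CT12, control CT12, control CT0, knockout CT18 and control CT6 to knockout CT6 and knockout CT0. The only neighbours in that order whose arrays did not overlap were control CT6 and knockout CT6, so the 2 knockout groups of the early cycle stood below all others. The range of the 8 Nampt group means, 0.951, was wider than in 99.1% of all genes, and its pooled SD within groups, 0.288, was larger than in 95.5%. Clock genes give a reference for the time scale: the repressor gene Nr1d1 was highest at CT6 in both genotypes, with a peak minus trough of 2.16 in knockout fat and 2.50 in control fat. Dbp, a factor gene driven through E-boxes, was highest at CT12 in both, with 0.904 in knockout fat and 1.21 in control fat. Its knockout means at CT6 (7.54) and CT12 (7.56) were close, and the first knockout array at CT12 was the highest of its group (7.68). The time of the Dbp peak in knockout fat was thus not settled. In knockout and control fat the peak minus trough was 0.264 and 0.741 for Cry1, 0.694 and 1.63 for Arntl, and 0.628 and 0.564 for Per2. Arntl is the floxed gene Bmal1 itself, so it is no neutral reference. Over all times its mean difference was 0.008 ± 0.08, from -0.54 at CT0 to 0.40 at CT12. At CT12, its lowest time in both genotypes, it read 6.46, 6.89 and 6.87 in knockout fat, against 6.75, 6.04 and 6.22 in control fat. The first array of each was among those singled out. Whether its probe set reads the deleted part is not known here, so it was no check of the knockout.

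The genes whose levels followed Nampt most closely over the 24 arrays were Fmo1 (Pearson r = 0.908), Glul (0.892), Gsta3 (0.871), Kcnj15 (0.857) and Acsm5 (0.846). Fmo1 encodes a flavin monooxygenase, Glul glutamine synthetase and Gsta3 a glutathione transferase. These values are a description over arrays that share genotype, time and tissue makeup.

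The NMNAT enzymes, which convert nicotinamide mononucleotide to NAD, showed small differences. Nmnat1, the nuclear form, lies at chr4:149467569-149485210. Its mean difference was 0.04 ± 0.06 (-0.08 to 0.17). At CT18 the knockout arrays read 6.11, 6.09 and 6.65, against 6.09, 6.22 and 6.19 in control fat, so 1 of the knockout arrays, the third, stood above all others. Without the 4 arrays, of which it is one, the mean difference was -0.0027. Nmnat3, the form placed in mitochondria, lies at chr9:98287433-98420533, and its difference was 0.07 ± 0.05 (-0.03 to 0.17), with overlap between genotypes at every time.

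Nadk, whose enzyme phosphorylates NAD to NADP, lies at chr4:155562381-155591001 and was the only other member with an unadjusted p under 0.05 for the mean difference. At CT6 its knockout arrays read 8.04, 7.92 and 7.88, against 8.29, 8.14 and 8.10 in control fat. The genotypes did not overlap at that time, with a difference of -0.23 ± 0.10 (-0.43 to -0.03). The mean difference was -0.14 ± 0.05 (-0.24 to -0.04), with an adjusted p of 0.637, and 9 of the 12 knockout arrays were lower than the control mean for that circadian time. At CT0 the knockout arrays read 8.14, 7.78 and 8.08, against 8.05, 8.12 and 8.15 in control fat, and without the second knockout array, the one set apart by its marker genes, the CT0 difference was -0.0018.

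Nnmt, the methyltransferase that diverts nicotinamide out of the salvage route and is abundant in white fat, lies at chr9:48538002-48607655. At CT6 the knockout arrays read 8.98, 9.29 and 8.98, against 8.83, 8.85 and 8.96 in control fat, all knockout arrays above, as for 5.01% of all genes. That difference was 0.20 ± 0.18, about the size of its error. Its mean difference was 0.05 ± 0.09 (-0.14 to 0.25, adjusted p = 0.983).

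Nnmt was the other member, beside Nampt, with a sizeable step over the day. CT18 minus CT6 was 0.35 ± 0.18 in knockout fat (adjusted p = 0.465) and 0.39 ± 0.18 in control fat (0.641), and neither passed. At CT0 the knockout arrays read 9.44, 8.57 and 9.16, against 9.22, 9.15 and 9.09 in control fat. Without the second knockout array the Nnmt difference at CT0 was 0.15 ± 0.17, against -0.10 ± 0.18 with it. The genes that followed Nnmt most closely were Emc9 (r = 0.914), Hspa12a (0.900) and Ywhab (0.895), over the same 24 arrays.

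The sirtuins, which remove acyl groups from proteins at the cost of NAD, did not pass for a genotype difference in any of the 3 members measured. Sirt1, the nuclear deacetylase whose promoter letters are printed above, lies at chr10:63319005-63339035. Its 12 knockout arrays ran from 7.46 to 8.04 and its 12 control arrays from 7.71 to 7.90. The mean difference was -0.02 ± 0.06 (-0.14 to 0.10, adjusted p = 0.989).

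At CT0 Sirt1 read 7.97, 7.46 and 8.04 in knockout fat, against 7.88, 7.74 and 7.77 in control fat. The second knockout array was the lowest of all 24 for Sirt1, and the other 2 knockout arrays were above every control array of that time. The CT0 difference without that array was 0.21 ± 0.10 (adjusted p = 0.9993), against 0.03 ± 0.12 with it. In all, 4 of the 9 members (Nampt, Nnmt, Nadk and Sirt1) had their lowest value on that array, which was also the array with the lowest adipocyte marker mean. The share of all genes with their lowest value there was not computed, so the count does not set the members apart. The part of tissue makeup in these values was not tested.

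Sirt3, the main mitochondrial deacetylase, lies at chr7:140863663-140882309, and its mean difference was 0.03 ± 0.04 (-0.06 to 0.12). In knockout fat CT12 minus CT0 was 0.20 ± 0.09, with an adjusted p of 0.439. Sirt6, a nuclear deacetylase of chromatin, lies at chr10:81621787-81627792, and its mean difference was -0.05 ± 0.04 (-0.13 to 0.03). Both genes overlapped between genotypes at every time.

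Parp1, the most active consumer of NAD among the ADP-ribosyltransferases and a responder to DNA breaks, lies at chr1:180568891-180600999. At CT18 its knockout arrays read 7.37, 7.44 and 7.29, against 7.53, 7.69 and 7.51 in control fat. Every knockout array was below every control array, as for 4.25% of all genes at CT18, with a difference of -0.21 ± 0.07 (-0.37 to -0.06, adjusted p = 0.810). At CT12 the values were 7.58, 7.61 and 7.49 in knockout fat, against 7.36, 7.37 and 7.54 in control fat, a difference of 0.13 ± 0.07 in the other direction. The genotype by time interaction of Parp1 had an unadjusted p of 0.026 and an adjusted p near 1, so the turn between those times was not established.

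**Figure D2:**
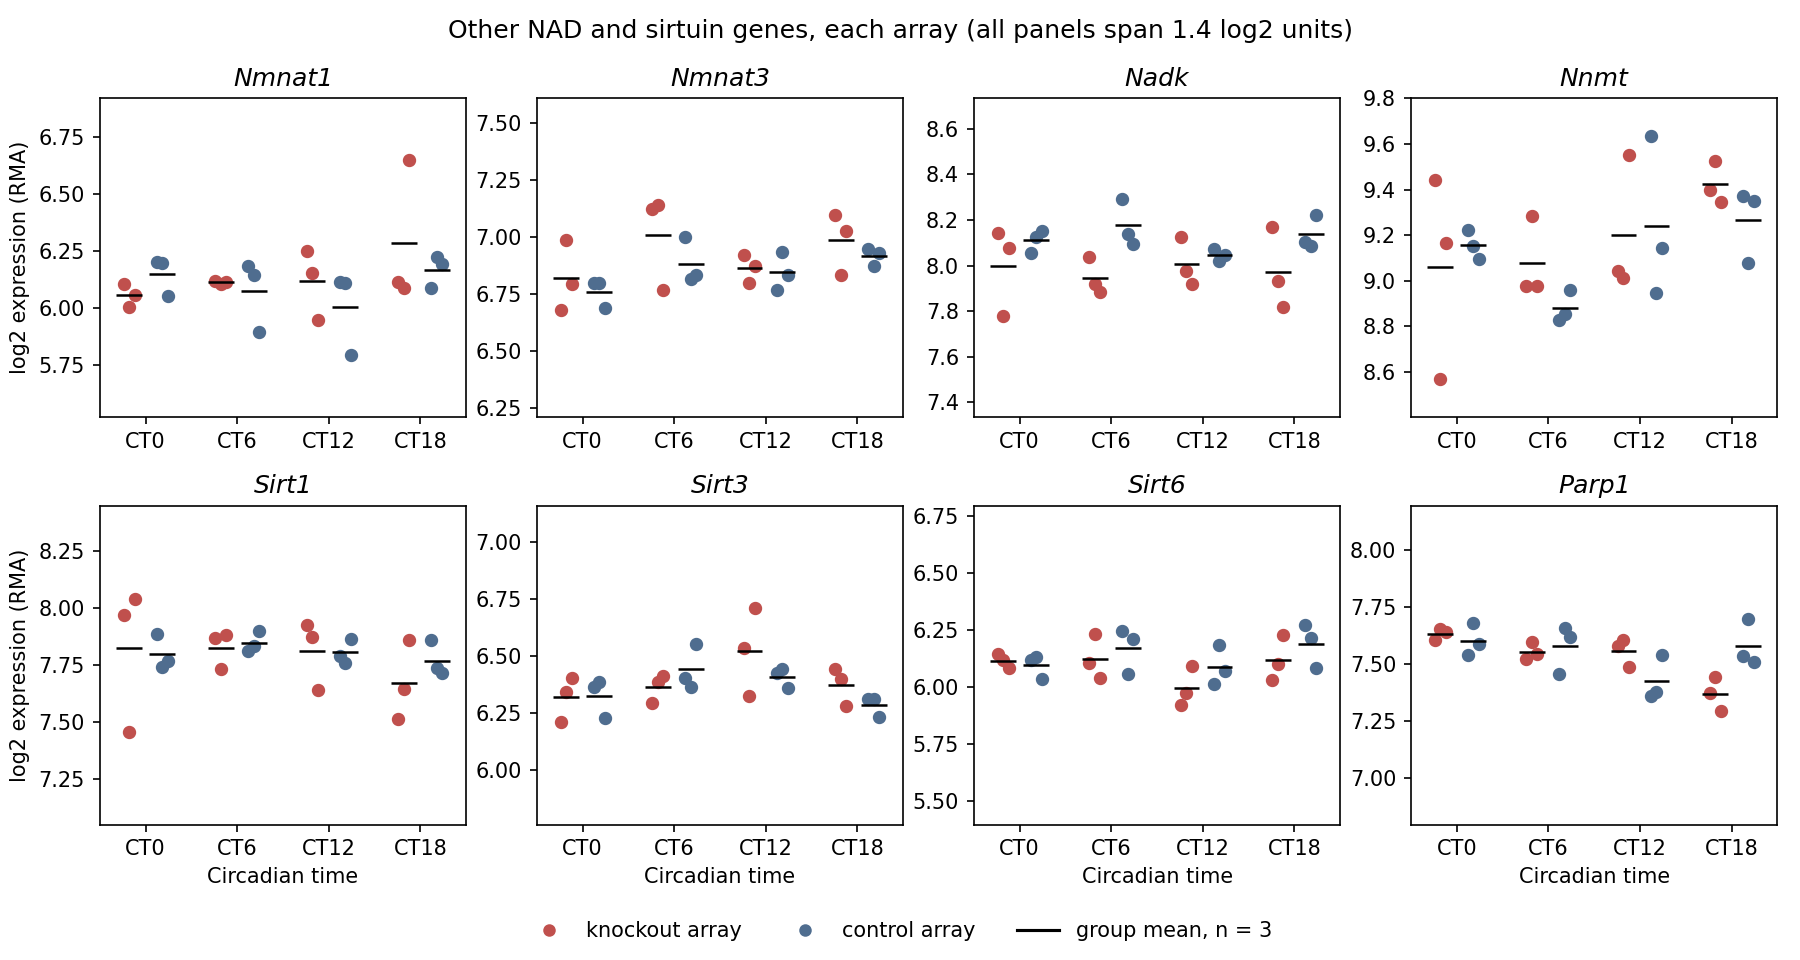
Log2 expression of the 8 members other than Nampt on each of the 24 arrays by circadian time, with group means, for knockout and control fat. Arrays of both genotypes overlap in most panels, and the knockout arrays lie apart at CT6 for Nadk and Nnmt and at CT18 for Parp1.

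As a group, 0 of the 9 members passed the adjusted threshold of 0.05 for the mean genotype difference, against 0.0201% of all genes (4 of 19938). Members at an unadjusted p under 0.05 were 2 of 9 for that difference (Nampt and Nadk), against 1211 of all genes (6.07%). Of the 9 mean differences 4 were positive and 5 negative, with a median of -0.02, close to the median of 0.0008 over all genes. At CT0, CT6 and CT12 0 of 9 passed and 0% of all genes did, and at CT18 0 of 9 passed, against 0.00502%. At an unadjusted p under 0.05 in limma, the members were 1 at CT0, 2 at CT6, 0 at CT12 and 1 at CT18, beside 5.55%, 3.77%, 2.49% and 6.05% of all genes at those times.

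By array values alone, without a test, the knockout arrays were clear of the control arrays for 1 of 9 members at CT0 (Nampt, below), where 10.8% of all genes were (4.47% below and 6.28% above). At CT6 this held for 3 of 9 (Nampt and Nadk below, Nnmt above), against 11.3% of all genes (6.27% below and 5.01% above). At CT12 it held for 0 of 9, against 8.09% (5.12% below and 2.97% above). At CT18 it held for 1 of 9 (Parp1, below), against 8.58% (4.25% below and 4.33% above). At CT0 and CT18 the share of members was near that of all genes.

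Over time, 0 of 9 members passed in knockout fat (0.0702% of all genes), 0 in control fat (0.0602%) and 0 over both genotypes (0.883%, or 176 genes). The interaction had 0 of 9 members and 0% of all genes. At an unadjusted p under 0.05 in limma, there were 2 members in knockout fat, 0 in control fat, 2 over both genotypes and 1 for the interaction. The shares of all genes were 13.4%, 5.8%, 16.1% and 2.98% in the same order. Between opposite times, 0 of 9 passed for CT12 minus CT0 in knockout fat (0.0953% of all genes) and in control fat (0.0401%), and for CT18 minus CT6 in knockout fat (0.0201%) and in control fat (0.0602%). Unadjusted, 2 members were under 0.05 for each of these steps in knockout fat and 1 for each in control fat. Over all genes the shares were 9.77% for CT12 minus CT0 and 11.8% for CT18 minus CT6 in knockout fat, against 4.94% and 7.74% in control fat.

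**Figure D3:**
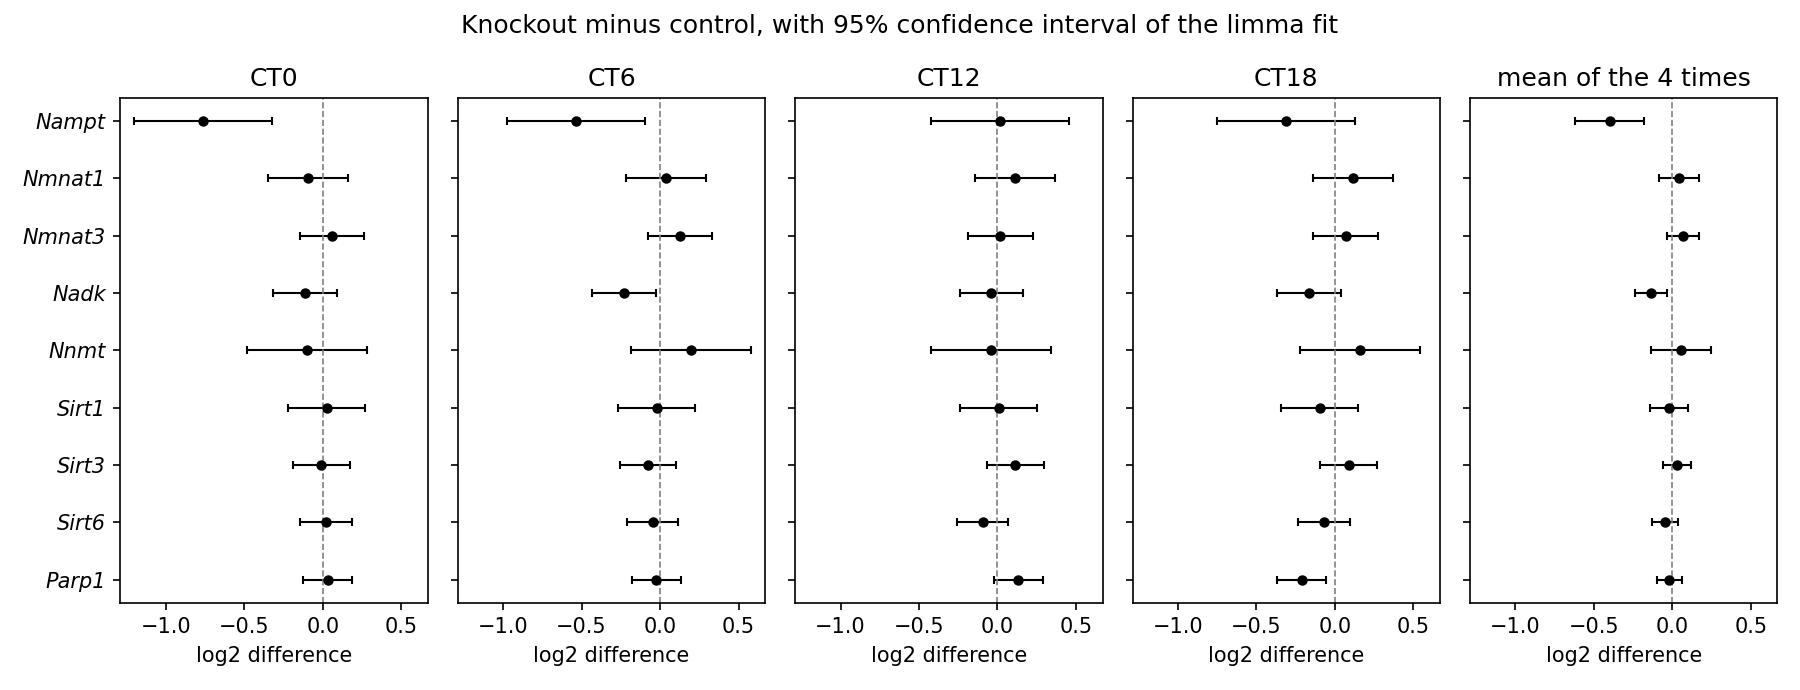
Knockout minus control log2 differences of the 9 members at CT0, CT6, CT12 and CT18 and over all 4 times, with 95% intervals from limma. The Nampt interval lies below 0 at CT0, at CT6 and for the mean of the times, as do those of Nadk at CT6 and for the mean and of Parp1 at CT18, while the others span 0.

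The rest of the NAD pathway was read from a list of 43 further genes, of which 40 were measured. None of the 40 passed in any of the 13 comparisons, and for the mean genotype difference 14 were higher and 26 lower in knockout fat, with a median of -0.03. In limma 5 of the 40 had an unadjusted p under 0.05 for that difference, against 6.07% of all genes. Without the 4 arrays 18 were higher and 22 lower, with 10 signs turned, and without the second knockout array at CT0 17 were higher and 23 lower. The ADP-ribosyltransferases had 3 of 12 higher and 9 lower, or 4 and 8 without the 4 arrays. The tryptophan route to NAD had 4 of 9 higher and 5 lower, or 2 and 7 without the 4 arrays and 5 and 4 without the second knockout array at CT0. The further sirtuins had 1 of 4 higher and 3 lower, or 3 and 1 without the 4 arrays. Naprt and Nadsyn1, of nicotinic acid use, had mean differences of -0.02 and -0.03, and of 0.02 and 0.01 without the 4 arrays. These class counts are descriptions without a test.

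Aox1, an aldehyde oxidase that oxidises methylated nicotinamide, the product of NNMT, had the smallest p of the 40. At CT0 it read 8.81, 8.02 and 8.84 in knockout fat, against 9.13, 9.01 and 9.12 in control fat. At CT6 it read 8.53, 8.69 and 8.88, against 9.21, 8.93 and 9.09. The genotypes did not overlap at either time, the same times at which the Nampt arrays were apart. At CT0 3 of the 40 genes were clear below and 2 clear above, against 4.47% and 6.28% of all genes. At CT6 1 was clear below and 1 clear above, against 6.27% and 5.01% of all genes.

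The mean difference of Aox1 was -0.34 ± 0.08 (adjusted p = 0.214), with 11 of 12 knockout arrays lower than the control mean for their circadian time, and it was -0.38 ± 0.09 without the 4 arrays (adjusted p = 0.0802). Its CT0 difference of -0.53 ± 0.17 was -0.26 without the second knockout array. Nmrk1, a kinase for nicotinamide riboside, had a mean difference of -0.17 ± 0.06 (0.642), Parp11 -0.14 ± 0.05 (0.694) and Parp10 -0.10 ± 0.04 (0.722).

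Parp11, a mono-ADP-ribosyltransferase, had the smallest p at CT18. It read 5.91, 5.87 and 5.43 in knockout fat, against 6.33, 6.22 and 6.12 in control fat, all knockout arrays below, with a difference of -0.49 ± 0.11 (adjusted p = 0.503). At CT18 2 of the 40 further pathway genes were clear below and 38 overlapped. Of all genes, 4.25% were clear below and 8.58% clear either way at that time. Within knockout fat the CT18 minus CT6 step of Parp11 was -0.51 ± 0.11 (adjusted p = 0.103), and -0.36 ± 0.10 without the 4 arrays (0.475). Pnp, the phosphorylase that splits nicotinamide riboside, had CT12 minus CT0 of 0.55 ± 0.15 in knockout fat (adjusted p = 0.198), and of 0.35 ± 0.14 without the second knockout array at CT0 (0.607).

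**Figure D4:**
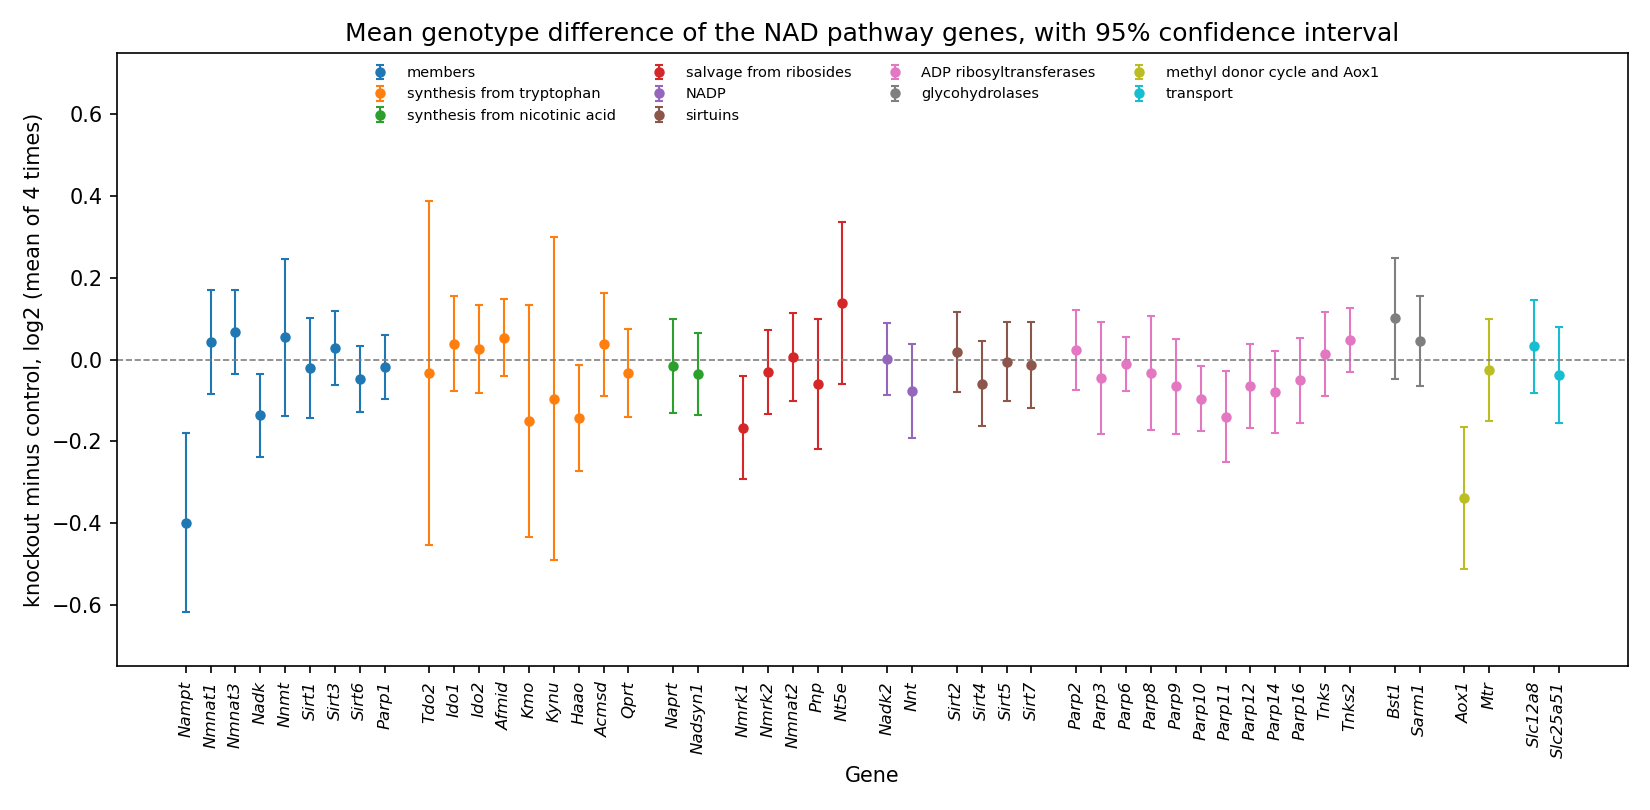
Mean knockout minus control log2 differences of the 9 members and the 40 further NAD pathway genes, with 95% intervals, by class. Nampt at -0.40 and Aox1 at -0.34 lie farthest below 0.

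Markers of other cells moved with some of these comparisons. At CT6 the mean over 8 macrophage genes was 8.47 to 8.78 in knockout fat, against 8.33 to 8.45 in control fat, with 0 of the 8 lower and no overlap. Of the other lists, the largest differences at CT6 were in the B cell (-0.42, 7 of 7 lower), T cell (-0.34, 7 of 7 lower) and endothelial means (-0.20, 8 of 8 lower), all with overlap. These stand beside the CT6 values of Nampt, Nadk, Nnmt and Aox1, and the part of tissue makeup in them was not tested. At CT0 the mean over the 8 adipocyte genes was 10.33 to 11.04 in knockout fat, against 10.75 to 10.93 in control fat, with 8 of 8 lower and overlap between the genotypes, beside the CT0 values of Nampt and Aox1. Larger differences stood beside them at CT0 in the means over smooth muscle genes (0.66, with 0 of 6 lower), epithelium genes (0.32, 0 of 8 lower) and macrophage genes (-0.22, 8 of 8 lower), all with overlap, and their part was not tested. The second knockout array at CT0 weighed on all of these CT0 marker differences. It had the lowest adipocyte (10.33) and macrophage (7.66) means of all arrays. Its smooth muscle (10.37) and epithelium (7.05) means were the highest. The highest adipocyte mean in knockout fat at CT0, 11.04, was above every control array of that time. The CT0 marker differences are not given without that second array. Over all times the endothelial mean differed by -0.18, with 8 of 8 genes lower and no overlap at CT12. The T cell mean differed by -0.14 and the B cell mean by -0.08, each with 7 of 7 lower. The epithelium mean differed by 0.06, with 3 of 8 lower, and the adipocyte mean by -0.05, with 7 of 8 lower. These stand beside the mean Nampt difference of -0.40, and their part in it was not tested. The largest differences at CT12 were in the smooth muscle (-0.50, 6 of 6 lower) and endothelial means (-0.26, 8 of 8 lower), without overlap. The macrophage mean differed by 0.29, with 0 of 8 lower and overlap. The CT12 values of Nampt and Parp1 stand beside these, and the part of tissue makeup in them was not tested. At CT18 the mean over 6 smooth muscle genes was 8.61 to 9.16 in knockout fat, against 9.22 to 9.53 in control fat, with 6 of 6 lower and no overlap. The next largest differences at CT18 were in the macrophage (-0.28, 8 of 8 lower), T cell (-0.26, 7 of 7 lower) and endothelial means (-0.21, 8 of 8 lower), all with overlap. These stand beside the CT18 values of Parp1 and Parp11, and their part in them was not tested either.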

How the data were processed

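The 24 arrays measured RNA of inguinal fat, 3 mice per genotype and circadian time, after Trizol extraction and amplification of 50 ng, per the labels' protocols. The deposited values are log2 expression levels that the authors made with RMA, per the submitters' processing notes; its version is not given in the sources used here. They were used as deposited. Arrays have no read depth, and their number limits the precision.

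Of 35556 probe sets, 21789 had 1 gene symbol in the platform annotation, and where a gene had several the brightest on average stood for it, which left 19938 genes. Locations and promoter windows are RefSeq's, GRCm38.p6.

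A model of the 8 group means was fitted with limma 3.58.1 in R 4.3.3 (lmFit and eBayes, 16 residual and 5.03 prior degrees of freedom), with Benjamini-Hochberg adjustment over all genes and a threshold of 0.05. Each adjusted p comes from this fit, unless an alternative setting or arrays left out are named beside it. The fit was tested on simulated data, and tables were summarised in Python 3.11.15. Alternatives were quantile normalization, centring, leaving out dim genes, robust eBayes, all probe sets, a replicate block, and leaving out the 4 arrays or each array in turn.

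The genes named are the 9 members, pathway genes that passed or were among the 4 smallest p-values of a comparison, up to 5 genes most like a member by correlation, clock genes for reference and cell type markers. Genes and lists were chosen with earlier results of these data known.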

Additional observations from a re-analysis of the deposited data

How the results depend on the processing

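The count of members past the threshold stayed at 0 under the other settings run except as follows. For the mean genotype difference it was 1 (Nampt) without the 4 arrays, and 0 to 1 when single arrays were left out. For time over both genotypes it was 0 to 1, with Nampt at an adjusted p of 0.0368 without the third knockout array of CT12 and 0.0455 without the second of CT18. The Nampt mean difference was -0.47 to -0.34 without single arrays, and its adjusted p was 0.323 after quantile normalization, 0.331 after centring, 0.204 without dim genes, 0.387 with robust eBayes and 0.307 over all probe sets.

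Among the differences recomputed under every setting, signs turned in these cases. The Nampt difference at CT12 was -0.46 without the 4 arrays and -0.29 to 0.26 without single arrays. The Nmnat1 mean was -0.0027 without the 4 arrays and -0.0028 to 0.067 without single arrays. Without single arrays the Sirt1 mean was -0.049 to 0.024, the Sirt1 difference at CT0 -0.083 to 0.21, the Nnmt difference at CT0 -0.29 to 0.15 and the Tdo2 difference at CT6 -0.066 to 1.02. Without the second knockout array of CT18, Parp11 passed for CT18 minus CT6 in knockout fat. Of the 40 further pathway genes, 10 mean differences turned without the 4 arrays (Ido1, Acmsd, Naprt, Nadsyn1, Sirt5, Sirt7, Parp2, Parp3, Parp8 and Mtr) and 5 without the second knockout array of CT0. The causes were not tested.

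Over all genes, the mean genotype difference had 4 calls, and 0 after quantile normalization, 0 with robust eBayes, 0 over all probe sets, 9 without dim genes, 139 without the 4 arrays and 0 to 30 without single arrays. Time over both genotypes had 176, 75 without the 4 arrays and 88 to 291 without single arrays. The main fit did not pair samples by replicate number. The correlation of same-numbered knockout and control deviations ran from -0.37 to 0.37, above 0 throughout CT0 and below 0 throughout CT12. Arrays of different numbers were not compared, so this does not settle whether the samples were paired. With the replicate block Nampt had a mean difference of -0.40 ± 0.12 with an adjusted p of 0.616, 0 members passed, and 0 genes passed for the mean genotype difference.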
